A study of Homo sapiens with 16 samples.

Results

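The 10 genes described here encode claudins and other tight junction proteins: CLDN1, CLDN3, CLDN4, CLDN6, CLDN7, CLDN10, CLDN12, OCLN, TJP1 and F11R. They were taken by symbol from the 59428 genes of the count table, and all 10 were found. RNA was measured in OVCAR3 and UWB1.289, both labelled as serous ovarian carcinoma cells and described by the series as BRCA1 wild-type and BRCA1 deficient lines. OVCAR3 was kept for 96 h with 7.5 µM olaparib, an inhibitor of PARP enzymes, or with its solvent DMSO, and UWB1.289 for 96 h with 3.5 µM olaparib or DMSO. Each of the 4 groups had 4 libraries, 16 in all. OVCAR3 was grown in RPMI1640 with serum and insulin and UWB1.289 in a mixture of MEGM and RPMI1640 with less serum, so line, BRCA1 status and medium cannot be told apart, and between the olaparib effects of the lines neither can the dose. Each BRCA1 status rests on 1 cell line, and the labels do not say whether replicates were separate cultures, so p-values measure only the spread between these libraries.

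Tight junctions seal the space between neighbouring epithelial cells. Claudins are 4-pass membrane proteins whose outer loops meet those of claudins on the next cell, and which of them a cell makes sets how tight the seal is and which ions pass. Occludin is a further membrane protein of the strand, F11R (JAM-A) is an immunoglobulin-like adhesion protein at the junction, and TJP1 (ZO-1) is the scaffold on the inner side that ties these proteins to actin. Several claudins, CLDN3 and CLDN4 among them, are commonly found in ovarian carcinoma.

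Total counts per library ranged from 5599571 to 7730228. The libraries are of the QuantSeq type, which reads the 3′ ends of transcripts, so a count does not grow with transcript length. Levels are given as counts normalized with the TMM method on 1 scale for all 16 libraries. Apart from the marker levels that follow, counts of different genes were not compared. The 8 ovarian carcinoma markers summed to between 17451 and 52883 normalized counts in every library, mostly from KRT7, KRT8, KRT18 and KRT19. The 10 markers of other cell types summed to between 155 and 515. With DMSO, means in OVCAR3 and UWB1.289 were 2887 and 1863 for PAX8, 1359 and 236 for MUC16, and 163 and 154 for MSLN. WT1 had a mean of 784 in OVCAR3 with DMSO and was at 0 in UWB1.289 with DMSO. Among the fibroblast markers, COL1A2 had means of 4.74 and 314 in the same groups, while COL1A1 went the other way, with 158 and 24.7. DCN had means of 0.284 and 0 there, and LUM was at 0 in both. Bulk RNA does not separate fewer cells of a type from less RNA per cell.

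The promoters of the 3 members whose olaparib response differed between the lines are shown first, as the 250 bases before the RefSeq start in GRCh38.p14. Capitals mark GC boxes (GGGCGG) and AP-1 type motifs (TGANTCA) on either strand. CLDN1 lies on the reverse strand at chr3:190322447-190322696, CLDN3 on the reverse strand at chr7:73770271-73770520 and CLDN4 on the forward strand at chr7:73830746-73830995.
CLDN1: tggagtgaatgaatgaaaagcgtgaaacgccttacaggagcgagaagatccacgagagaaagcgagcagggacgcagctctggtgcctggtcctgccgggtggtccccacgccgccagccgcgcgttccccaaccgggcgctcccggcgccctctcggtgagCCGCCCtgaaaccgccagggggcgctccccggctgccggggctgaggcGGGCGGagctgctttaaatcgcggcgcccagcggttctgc
CLDN3: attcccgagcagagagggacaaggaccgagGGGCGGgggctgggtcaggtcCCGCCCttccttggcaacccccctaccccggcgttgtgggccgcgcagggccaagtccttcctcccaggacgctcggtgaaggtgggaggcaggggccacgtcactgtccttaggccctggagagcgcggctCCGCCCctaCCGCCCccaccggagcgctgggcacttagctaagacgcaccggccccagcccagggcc
CLDN4: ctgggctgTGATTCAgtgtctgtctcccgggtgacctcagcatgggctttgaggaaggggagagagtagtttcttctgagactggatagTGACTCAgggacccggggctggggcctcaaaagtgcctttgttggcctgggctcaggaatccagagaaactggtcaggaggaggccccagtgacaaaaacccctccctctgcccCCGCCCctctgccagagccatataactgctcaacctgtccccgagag

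The CLDN1 window held 2 GC boxes, the CLDN3 window 4 and the CLDN4 window 1, and 42.64% of all 35116 windows of this length held at least 1. CLDN4 also held 2 AP-1 type motifs, starting 242 and 161 bases before the start, a motif found in 6.573% of all windows. Among the 9 members with a window (F11R had none), no other member's window matched it. The search covered both strands and also CANNTG (61.82% of windows), CAGGTG (17.49%, a form of CANNTG), AACCNGNTT (1.797%), AACCGGTT (0.1168%), TATAAA (10.72%) and GGAATG (11.89%). CANNTG had matches in windows of CLDN7, CLDN10, OCLN and TJP1, and CAGGTG in windows of CLDN7, OCLN and TJP1. A match describes the letters only.

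CLDN1 was the member that olaparib changed most in OVCAR3. CLDN1 spans chr3:190305707-190322446 and encodes a sealing claudin. Its normalized counts in OVCAR3 were 333, 432, 329 and 313 with DMSO and 1495, 1383, 1285 and 1527 with olaparib. The lowest olaparib library was well above the highest DMSO library. The log2 fold change was 2.02 (SE 0.0987, adjusted p = 5.12e-11 in edgeR), a 4.06-fold increase, and ranked 78 by size among the increases of the 13031 genes tested. In UWB1.289 the level was already higher with DMSO, at 4795, 4222, 4401 and 5053, and was 5930, 5748, 5639 and 6211 with olaparib. The groups did not overlap there either. The change was 0.35 on the log2 scale (SE 0.0756, adjusted p = 0.00383), or 1.28-fold.

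CLDN3 and CLDN4 moved the other way in OVCAR3. Both genes lie close together on chromosome 7, at chr7:73768997-73770270 on the reverse strand and chr7:73799542-73832690 on the forward strand, with 29271 bases between them. CLDN3 counts were 1697, 1544, 1550 and 1762 with DMSO and 760, 848, 821 and 926 with olaparib, without overlap. They fell by 0.96 on the log2 scale (SE 0.0802, adjusted p = 3.03e-08), just short of 2-fold. CLDN4 counts were 1551, 1325, 1411 and 1497 with DMSO and 1022, 997, 1112 and 1072 with olaparib, again without overlap. CLDN4 fell by 0.46 (SE 0.0756, adjusted p = 1.52e-04). In UWB1.289 neither gene passed the test, with log2 fold changes of -0.12 (95% interval -0.30 to 0.06) for CLDN3 and -0.04 (-0.22 to 0.14) for CLDN4. Of the 8 ovarian carcinoma markers, 5 also fell in OVCAR3 (KRT8, KRT18, KRT19, WT1 and MUC16), KRT7 rose (log2 0.19, adjusted p = 0.0948) and 2 did not pass. The epithelial keratins KRT8 and KRT18 fell by 1.05 and 1.02 on the log2 scale, from means of 5405 and 11640 to 2602 and 5726 normalized counts. The summed level of the list, to which these keratins contribute much, went from between 28794 and 31126 with DMSO to between 17451 and 19952 with olaparib, and its part in the fall of CLDN3 and CLDN4 was not tested.

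**Figure D1:**
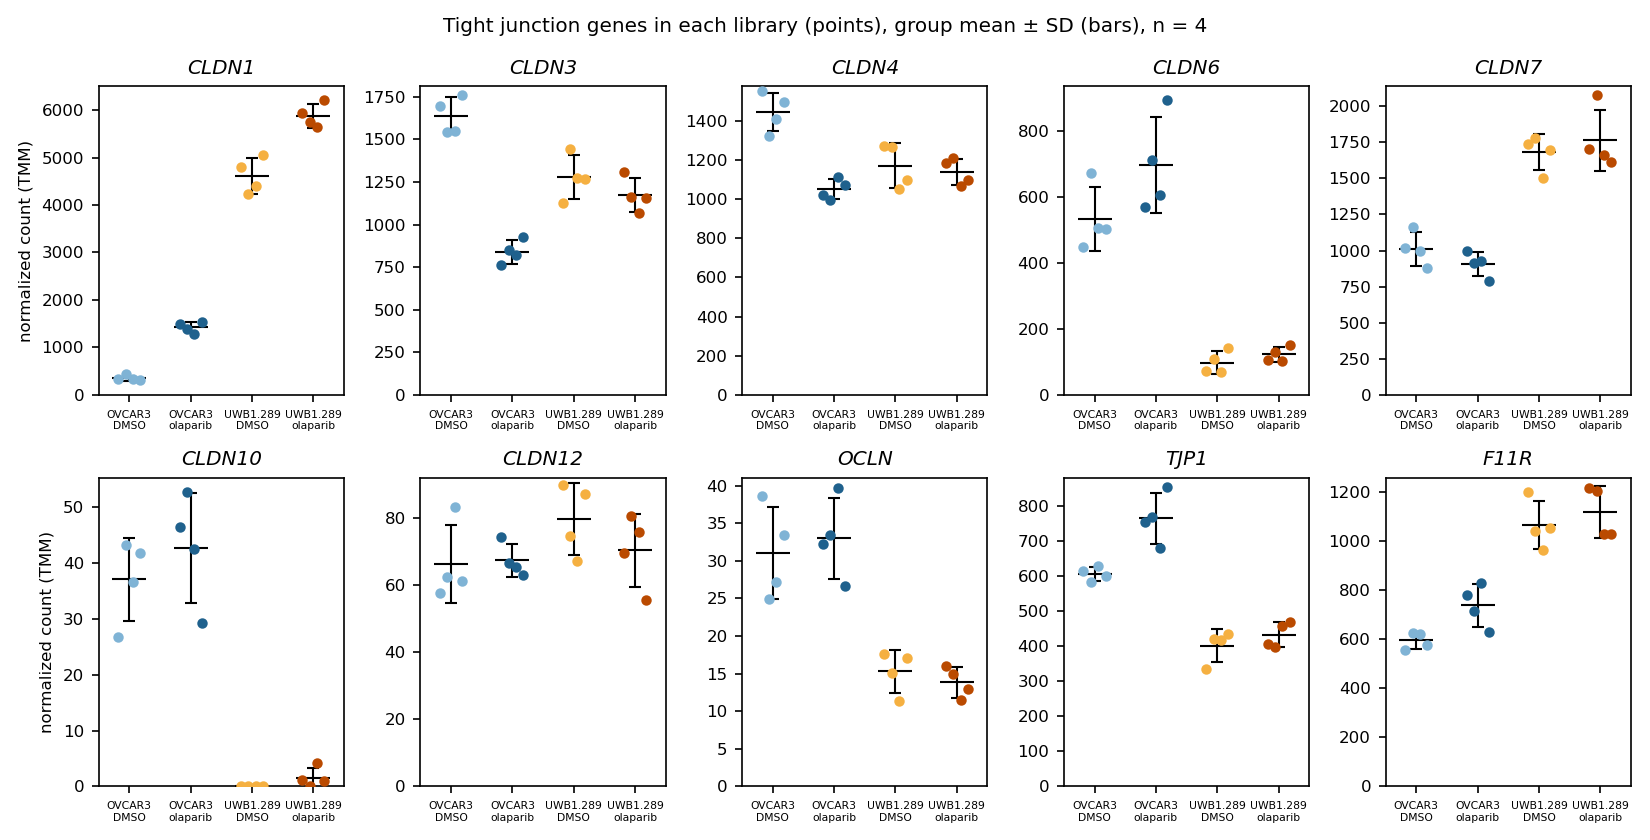
Normalized counts (linear axis starting at 0, scaled per gene) of the 10 genes in the 4 groups. Points are the 4 libraries of a group, and the bar with whiskers is the mean ± SD. CLDN1 in OVCAR3 sits between 313 and 432 with DMSO and between 1285 and 1527 with olaparib, CLDN3 falls from 1544 to 1762 down to 760 to 926, and CLDN10 has no count in UWB1.289 with DMSO.

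Of the members, the scaffold gene TJP1 and the adhesion gene F11R rose slightly in OVCAR3. TJP1 (chr15:29699367-29968915) had 614, 583, 630 and 600 normalized counts with DMSO and 756, 769, 679 and 855 with olaparib. Its olaparib libraries were all higher. The log2 fold change was 0.34 (SE 0.0828, adjusted p = 0.00516). F11R (chr1:160995211-161021343) had 557, 626, 619 and 574 counts with DMSO and 779, 713, 827 and 629 with olaparib, where the lowest olaparib library was just above the highest DMSO library. The log2 fold change was 0.31 (SE 0.0898, adjusted p = 0.0143). CLDN6 (chr16:3014712-3020071), a claudin of embryonic tissue that some ovarian tumours express, passed the test with overlapping groups. Its counts were 448, 673, 505 and 503 with DMSO and 570, 713, 605 and 895 with olaparib. The change was 0.39 on the log2 scale (SE 0.130, adjusted p = 0.0319), and the adjusted p was 0.121 without replicate 1 of OVCAR3 with DMSO.

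Of the 10 members in OVCAR3, 4 rose (CLDN1, CLDN6, TJP1 and F11R), 2 fell (CLDN3 and CLDN4) and 4 did not pass an adjusted p below 0.1. Over all genes tested, 15.5% rose and 16% fell by that rule. When the change also had to exceed 2-fold at an average count above 10, CLDN1 alone was called, against 2.90% of all genes called higher and 2.33% called lower. The median log2 fold change of the members was 0.14, beside -0.01 over all genes. Leaving out replicate 4 of OVCAR3 with olaparib took CLDN3 past 2-fold. The members that did not pass were CLDN7 (log2 fold change -0.15, 95% interval -0.35 to 0.04), CLDN10 (0.20, -0.29 to 0.68), CLDN12 (0.02, -0.33 to 0.38) and OCLN (0.09, -0.41 to 0.59).

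In UWB1.289, CLDN1 was the one member of 9 tested that changed. Over all genes 7.77% rose and 6.10% fell, and with the 2-fold limit 1.93% and 0.282% were called. Both edgeR and DESeq2 called 0 members there, and 1, CLDN1, had an unadjusted p below 0.05 in edgeR. The other tested members had log2 fold changes between -0.18 (CLDN12, 95% interval -0.54 to 0.17) and 0.32 (CLDN6, -0.09 to 0.72), and the median of the 9 was 0.07. CLDN6 had 72.3, 110, 69.3 and 141 counts with DMSO and 107, 129, 103 and 152 with olaparib. It passed (log2 fold change 0.55, adjusted p = 0.0892) without replicate 4 of UWB1.289 with DMSO. CLDN10 was not tested because its counts were 0 in all DMSO libraries and 1, 0, 4 and 1 with olaparib. A fit to all 16 libraries called it higher (adjusted p = 0.0804 in edgeR). There it met the count limits only through OVCAR3, with an average of 20.3 over all libraries. Over the UWB1.289 libraries alone the average was 0.759, and the adjusted p was 0.223 in edgeR without the filter. A count of 0 allows up to 3 counts in a library, and the mean of the olaparib libraries, 1.56 normalized counts, is under that limit, so no fold is given.

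**Figure D2:**
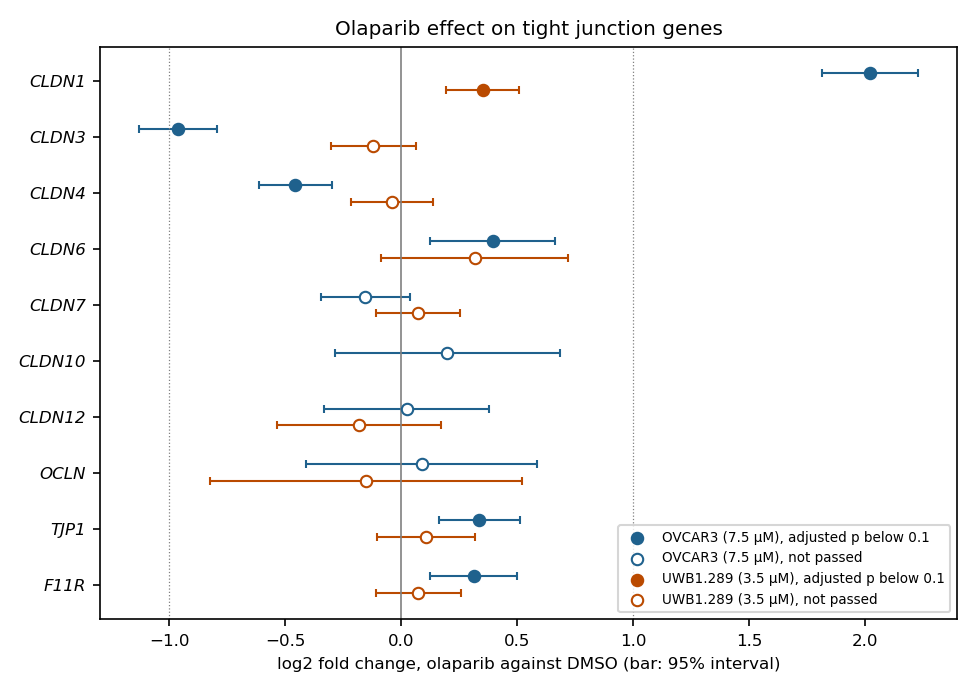
Log2 fold change of each gene, olaparib against DMSO, in OVCAR3 (blue) and UWB1.289 (orange), with 95% intervals from edgeR, where filled points passed an adjusted p below 0.1 and dotted lines mark a 2-fold change. CLDN1 stands at 2.02 in OVCAR3 and 0.35 in UWB1.289, CLDN3 at -0.96 and -0.12, and CLDN10 has no UWB1.289 value.

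The olaparib response differed between the lines for 3 of the 10 members. As UWB1.289 effect minus OVCAR3 effect on the log2 scale, the difference was -1.67 for CLDN1 (SE 0.124, adjusted p = 1.58e-10), 0.84 for CLDN3 (SE 0.121, adjusted p = 1.79e-05) and 0.42 for CLDN4 (SE 0.113, adjusted p = 0.0181). Over all genes, 5.09% had a higher and 5.83% a lower effect in UWB1.289, and with the 2-fold limit 2% and 1.66%. The remaining members did not pass, with intervals of the difference from -0.50 to 0.04 for TJP1, -0.50 to 0.03 for F11R, -0.04 to 0.50 for CLDN7, -0.69 to 0.28 for CLDN12, -1.02 to 0.54 for OCLN and -0.59 to 0.44 for CLDN6. CLDN10, near 0 counts in UWB1.289, had an adjusted p of 0.116, which was 0.0756 without replicate 2 of UWB1.289 with olaparib. It met the count limits of this test through its OVCAR3 counts. Doses differed between the lines, so the difference is that of the treatments as given.

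With DMSO the lines differed in 9 of 10 members. CLDN1, F11R and CLDN7 were higher in UWB1.289, CLDN3, CLDN4, CLDN6, CLDN10, OCLN and TJP1 were lower, and CLDN12 did not pass. Among all genes 39.8% were higher and 40.1% lower, so a share of this size is common between these lines. With the 2-fold limit 18.7% and 19.7% of all genes were called, and among the members CLDN1 was called higher and CLDN6, CLDN10 and OCLN lower. The member median was -0.33, beside -0.02 over all genes, and is the same with CLDN10 at its bound.

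CLDN1 had a mean of 352 ± 54.3 normalized counts (SD, n = 4) in OVCAR3 and 4618 ± 376 in UWB1.289, a 13.1-fold difference (log2 3.72, SE 0.0908, adjusted p = 6.03e-25). CLDN6 had 532 ± 97.5 and 98.3 ± 34.2, a 5.36-fold lower level in UWB1.289 (log2 -2.42, SE 0.153, adjusted p = 7.52e-15). Neither gene's groups overlapped. CLDN10 (chr13:95433604-95579759), a claudin that forms ion-selective channels, had 25, 38, 39 and 45 counts in OVCAR3 with DMSO and 0 in each UWB1.289 library with DMSO, so it was at least 12.5-fold lower there, taking the floor of 3 counts per library.

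The other differences were smaller. CLDN7 (chr17:7259903-7263983) stood at 1014 ± 117 in OVCAR3 and at 1679 ± 124 normalized counts in UWB1.289 (log2 0.73, adjusted p = 1.91e-09), and F11R had 594 ± 33.8 and 1064 ± 98.5 (log2 0.84, adjusted p = 1.15e-10). TJP1 had 607 ± 19.9 and 402 ± 46.1 (log2 -0.60, adjusted p = 4.29e-07). CLDN3 had 1638 ± 109 and 1276 ± 128 (log2 -0.36, adjusted p = 8.70e-05), and CLDN4 1446 ± 98.8 and 1172 ± 113 (log2 -0.31, adjusted p = 7.15e-04). CLDN12 (chr7:90383721-90513402) had 66.3 ± 11.7 and 79.8 ± 10.7 (log2 0.26, 95% interval -0.09 to 0.62, adjusted p = 0.170), and passed without replicate 3 of either line (adjusted p = 0.0852 without that of UWB1.289 and 0.0603 without that of OVCAR3).

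**Figure D3:**
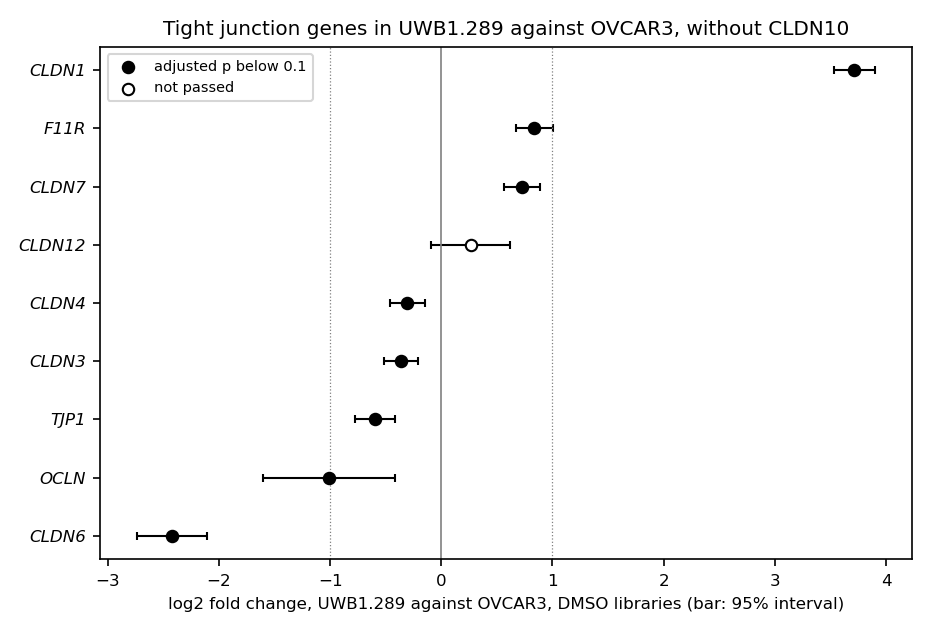
Log2 fold change of 9 of the genes in UWB1.289 against OVCAR3, DMSO libraries only, ordered by size, with 95% intervals from edgeR, where filled points passed an adjusted p below 0.1 and dotted lines mark a 2-fold difference. CLDN1 stands at 3.72 and CLDN6 at -2.42, while CLDN10 is left out because all 4 UWB1.289 libraries had 0 counts.

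OCLN, which encodes occludin, had low counts. Its raw counts were 36, 22, 29 and 36 in OVCAR3 with DMSO and 18, 14, 11 and 20 in UWB1.289 with DMSO (log2 fold change -1.01, SE 0.291, adjusted p = 0.00249). The groups did not overlap, but the value sits at the 2-fold limit and fell short of it without replicate 2 or 3 of UWB1.289 or replicate 1 or 4 of OVCAR3, and without a filter on low counts. The last 300 bases of OCLN (chr5:69492292-69558104) have 2 near-identical copies on chromosome 5, at chr5:71069793-71070092 with 99.7% identity and at chr5:70412952-70413251 with 99.3%. How reads with several matches were counted is not stated, so OCLN levels are uncertain. No other member had such a copy at 95% identity over 75 bases.

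Some members share sequence with other genes in GENCODE release 44. The CLDN10 3′ end overlaps the opposite-strand gene DZIP1 by 1558 bases, and DZIP1 had 399 counts over the 4 UWB1.289 libraries with DMSO, in which CLDN10 had 0. CLDN7 overlaps ELP5 by 38 bases at the 3′ end on the opposite strand. It also shares 2187 bases, its 3′ end included, with ENSG00000262302 on the same strand, a gene that is not in the count table. The end of the CLDN12 span lies within CDK14 on the same strand. CDK14 had 261 counts over the OVCAR3 libraries with DMSO and 1488 over those of UWB1.289. The last 300 bases of CLDN12, at chr7:90415655-90415954, lie outside CDK14, which starts at chr7:90466424. They lie within another gene on the same strand, ENSG00000273299, which is not in the count table. The other overlaps do not cover a member's 3′ end. TNFRSF12A overlaps CLDN6 by 1627 bases and HMGN2P5 overlaps TJP1 by 273, both on the opposite strand. GTPBP10 overlaps CLDN12 by 7733 bases on the same strand. CLDN10-AS1 over CLDN10, PTTG1IP2 over CLDN12 and RNU6-724P over OCLN had 0 counts in every group. Further loci over F11R, OCLN and TJP1 are not in the count table. Whether counting used strand is not stated, so reads of overlapping genes cannot be told apart where they overlap.

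CLDN16, a claudin of magnesium and calcium transport that is not a member, lies 94 bases from CLDN1 on the opposite strand (chr3:190322541-190412138 in GENCODE release 44). Its normalized counts in OVCAR3 were 203, 141, 160 and 149 with DMSO and 575, 433, 400 and 500 with olaparib, an increase of 1.55 on the log2 scale (adjusted p = 2.97e-08). In UWB1.289 they were 3420, 3442, 3951 and 3926 with DMSO and 3724, 2980, 3704 and 3792 with olaparib, where the change of -0.05 did not pass (adjusted p = 0.774). Between the lines with DMSO it was 22.6-fold higher in UWB1.289 (adjusted p = 2.74e-26). Its effect in UWB1.289 minus OVCAR3 was -1.60 (adjusted p = 2.01e-08), beside -1.67 for CLDN1. RefSeq places CLDN16 starts at other positions, 1 of them before CLDN1 in the genome. A transcript from there to the GENCODE end of CLDN16 would run across all of CLDN1 on the opposite strand. In GENCODE release 44, CLDN1 and CLDN16 share no part of their spans, and release 38, used for the counts, was not checked.

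**Figure D4:**
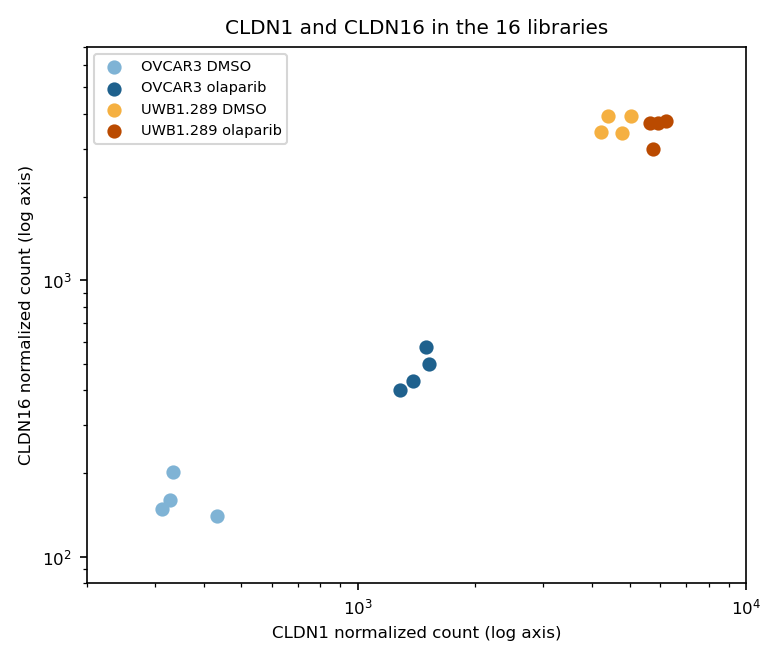
Normalized counts of CLDN1 (x axis, log) against CLDN16 (y axis, log) in the 16 libraries, coloured by group. Both genes are lowest in OVCAR3 with DMSO, higher in OVCAR3 with olaparib and highest in UWB1.289, where the 2 treatments separate along CLDN1 but not along CLDN16.

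The rest of the claudin family was mostly too low to test. Of 17 other claudins, 4 were tested in OVCAR3, where CLDN16 rose, CLDN9 (15.6 to 7.18 mean counts, log2 -1.11) and CLDN22 fell, and 1 did not pass. CLDN9 lies 206 bases from CLDN6. In UWB1.289 edgeR passed 0 of 3 tested, and 0 had an unadjusted p below 0.05. Between the lines 3 were higher in UWB1.289, CLDN11 among them (3.81 ± 0.547 and 191 ± 15.8 mean counts, log2 5.61), 1 was lower and 1 did not pass.

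Among the 21 scaffold and polarity genes tested in OVCAR3, 4 rose, 8 fell and 9 did not pass, with a median log2 fold change of -0.17. The shares over all genes were 15.5% higher and 16% lower, and they apply to each list of this comparison. CGN, which encodes the scaffold cingulin, fell from 346 ± 9.35 to 172 ± 27.5 normalized counts (log2 -1.002). Of 11 adherens junction genes 3 rose, 5 fell and 3 did not pass (median -0.13). Among 6 other junction membrane genes ILDR1, of tricellular junctions, fell (log2 -1.001) and LSR rose (0.34). Of 9 transcription factors of epithelial state 4 rose and 3 fell, OVOL1 rising by 1.55 and SNAI1 by 2.17 with overlapping groups, and of 6 claudin partners and proteases 1 rose and 3 fell.

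In UWB1.289, 0 of these scaffold genes rose and 1 of 19 fell, and 0 of 6 junction membrane genes and 0 of 6 partners passed in edgeR. At an unadjusted p below 0.05, 0 scaffold genes were higher and 3 lower, 0 junction membrane genes passed and 1 partner was lower. Of 9 adherens junction genes 3 fell. Of 9 transcription factors of epithelial state KLF4 (log2 0.89, adjusted p = 0.0638) and ZEB1 (1.26, adjusted p = 0.0934, groups overlapping) rose, and GRHL2 fell (-0.52, adjusted p = 0.0282). Over all genes 7.77% rose and 6.10% fell. In OVCAR3, KLF4 also rose (0.88, adjusted p = 0.0113 in edgeR) and GRHL2 also fell (-0.68, adjusted p = 5.82e-04), while ZEB1 was not tested. Between the lines with DMSO, 9 of 11 adherens junction genes were lower in UWB1.289, the median log2 difference being -1.35, beside 40.1% of all genes lower and 39.8% higher. CDH1, the E-cadherin of epithelial cells, was 4.83-fold lower there and CDH2, N-cadherin, 14.5-fold higher. Of 21 scaffold genes 13 were lower and 5 higher (median -0.29).

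For each member the gene with the most similar pattern was found by Pearson's r of log2 CPM over 16 libraries, among 14243 genes. The 16 points come from both lines and both treatments, each pair of values comes from the same library, and no test was run. They were FOSL1 for CLDN1 (r = 0.993), KRT19 for CLDN3 (0.964), ADGRG1 for CLDN4 (0.911), APLP1 for CLDN6 (0.985), HERPUD1 for CLDN7 (0.983), LY6E for CLDN10 (0.992), EIF2S2P4 for CLDN12 (0.778), ZC2HC1C for OCLN (0.962), WDHD1 for TJP1 (0.977) and TRMT6 for F11R (0.979). FOSL1 had 4 counts over the OVCAR3 libraries with DMSO, 100 with olaparib, and 641 and 870 in UWB1.289 with DMSO and olaparib.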

How the data were processed

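The authors prepared QuantSeq 3′ mRNA libraries, used BBDuk for trimming and STAR 2.7.9a for alignment to hg38, and counted reads per gene with featureCounts 2.0.0 and GENCODE release 38. The deposited values are raw counts, whole numbers that were not normalized. The treatment of strand and of reads with several matches is not given in the sources used here. Total counts ranged from 5599571 to 7730228, so a gene near 10 counts carries a large counting error.

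Tests used edgeR 4.0.16 in R 4.3.3 (TMM, filterByExpr, quasi-likelihood F test, Benjamini-Hochberg over all genes tested). Olaparib was tested within each line on 8 libraries, the lines on the 8 libraries with DMSO, and the interaction of olaparib and line over 16. "Changed" means an adjusted p below 0.1, and "called" also more than 2-fold with an average count above 10. Printed levels use 1 TMM scale over 16 libraries. Alternatives were DESeq2 1.42.0, its size factors, total counts, no filter, all 16 libraries, the replicate block, an adjusted p below 0.05, an average above 50 and leaving out each library. The tests were also tested on simulated data. None of the 24 pairs of libraries within groups was identical.

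Members and lists were chosen with earlier results of these data known. All members are named, with at most 3 called genes of each other list in each comparison. Genes of the count table that overlap a member and the gene most alike to each are named too. Outside these rules fall PAX8, MSLN, COL1A1, DCN, LUM, CDH1, CDH2, KLF4, GRHL2, KRT7 and the OVCAR3 values of CLDN22, LSR, WT1 and MUC16. These were chosen after their values were seen. Sequence copies were searched with blastn 2.17.0 and promoters taken from RefSeq; the motif AACCGGTT was added after a first search with the others. Same-numbered DMSO and olaparib libraries correlated, after removing group means, with r between 0.134 and 0.247 in UWB1.289 (9152 genes). In OVCAR3 r was between 0.0578 and 0.184 (9374 genes). In each line, replicate 1 with DMSO correlated more with an olaparib library of another number. For replicates 2, 3 and 4 with DMSO, the same-numbered olaparib library was the most correlated in both lines. These values do not settle whether such libraries were pairs in either line. The block raised the changed genes from 1768 to 2379 in UWB1.289 and from 4105 to 4296 in OVCAR3. The printed values come from fits without the block.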

Additional observations from a re-analysis of the deposited data

Results flagged for a closer look

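With DMSO in OVCAR3, CLDN1 in replicate 2 stood at 432 normalized counts, apart from the other 3 libraries at 313 to 333, by Dixon's test among 40 gene and group combinations. Chance marks about 1 in 20 such groups. The olaparib effect in UWB1.289 minus that in OVCAR3, tested as an interaction in edgeR, was -1.67 for CLDN1, 0.84 for CLDN3 and 0.42 for CLDN4 on the log2 scale. Dose, line and medium cannot be told apart in these differences.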

How the results depend on the processing

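With the replicate number as a block, pairing same-numbered libraries, 6 members changed in OVCAR3, 1 in UWB1.289, 9 between the lines and 3 in the interaction, and no call of a member moved. Fitting all 16 libraries gave 2 changed and 1 called member in UWB1.289, the added one being CLDN10. It met the count limits there, and in the interaction, through its OVCAR3 counts. An average count above 50 left 2 called between the lines, since CLDN10 and OCLN average less. Leaving out 1 library at a time, called members ranged from 1 to 2 in OVCAR3 (CLDN3 added without replicate 4 of the olaparib group) and from 1 to 2 in the interaction (CLDN10 added without replicate 2 of UWB1.289 with olaparib), and changed members from 1 to 2 in UWB1.289 (CLDN6 added without replicate 4 of the DMSO group). Over all the alternatives together, some log2 fold changes that had not passed crossed 0. In OVCAR3 they ranged from -0.036 to 0.16 for CLDN12 and from -0.0046 to 0.20 for OCLN. In UWB1.289 they ranged from -0.087 to 0.0051 for CLDN4 and from -0.017 to 0.11 for CLDN7. For CLDN6 in the interaction the range was from -0.23 to 0.16. The cause was not tested. Over these alternatives the log2 fold change of CLDN1 in OVCAR3 stayed between 1.97 and 2.13, that of CLDN3 between -1.01 and -0.92 and that of CLDN4 between -0.50 and -0.42, with every adjusted p below 0.1. All groups of CLDN10, CLDN12 and OCLN, and CLDN6 in UWB1.289 with DMSO, average below 100 normalized counts, where counting error is larger.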
